A study of Homo sapiens with 18 samples.

Results

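Chromatin accessibility was described at the promoters of the zinc finger genes of chromosome 19 in 3 head and neck squamous cell carcinoma (HNSCC) cell lines. The 246 regions were all those of the deposited accessibility table that lay on chromosome 19 within 1 kb of a transcription start site of a protein-coding gene with a symbol starting with ZNF (GENCODE annotation, GRCh37/hg19). They were 246 of 115087 regions in the table, and 246 of the 954 promoter regions of chromosome 19. Within the table, the choice used position and gene name alone. Being in the table did depend on measured values, as each of the 246 regions overlapped a peak called in these libraries. The regions belonged to 220 of the 249 ZNF genes of the chromosome, 32 genes had more than 1 region, and 222 regions lay over a start site itself. The regions over a start site had a median signal of 66.5, the 12 regions lying 500 to 1000 bp from the nearest start 26.2, and the 8 regions just beyond the limit, at 1000 to 1500 bp, 14.4.

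The study asked how early chromatin responds to cetuximab, an antibody that blocks the epidermal growth factor receptor, in the lines SCC1, SCC6 and SCC25. Every line was grown in DMEM and Ham's F12 medium and received 100 nM cetuximab or PBS, the vehicle, each day for 5 days, and open chromatin was then cut and tagged with the Tn5 transposase (ATAC-seq). There were 17 libraries in 6 groups, with 3 replicates of each line and treatment except SCC1 with PBS, where 2 are used and replicate 2 was not analysed here. Each line is 1 established tumour culture, so a difference between lines compares these 3 cultures and not types of tumour. The labels number the replicates but do not say that they were separate cultures, so p-values measure the spread between these libraries, which may be technical.

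Most of these genes encode proteins with tandem C2H2 zinc fingers that bind DNA, often joined to a KRAB domain, which recruits the corepressor TRIM28. TRIM28 in turn brings the histone methyltransferase SETDB1 and HP1 proteins, a pathway best known for silencing transposable elements. The genes lie in clusters that grew by tandem duplication, so that neighbours often carry related promoters as well as related fingers. Methylation of zinc finger promoters on this chromosome is a known feature of oral and oropharyngeal carcinoma.

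The promoters of the pericentromeric cluster, from ZNF101 to ZNF254, show this relatedness in their letters and differed widely between the lines. The 110 bases before the annotated start of 6 of its genes are printed on the gene's strand, 5′ to 3′, from GRCh37/hg19, because these promoters were open in different lines. The letters of ZNF724, ZNF738, ZNF493 and ZNF85 are closely alike around their motifs. ZNF724 and ZNF506 were low in SCC1, ZNF738 and ZNF429 were low in SCC25, ZNF493 was open in all lines, and ZNF85 had called peaks but a signal at the table's minimum. Capitals mark CCAAT and CTTCCGG, the reverse complement of the ETS core CCGGAAG.
ZNF724, chr19:23433197-23433306, - strand: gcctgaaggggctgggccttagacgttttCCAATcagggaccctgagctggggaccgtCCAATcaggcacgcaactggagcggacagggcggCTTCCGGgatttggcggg
ZNF506, chr19:19932560-19932669, - strand: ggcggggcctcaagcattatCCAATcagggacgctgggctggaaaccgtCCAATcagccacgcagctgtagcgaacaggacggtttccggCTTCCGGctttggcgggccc
ZNF738, chr19:21541692-21541801, + strand: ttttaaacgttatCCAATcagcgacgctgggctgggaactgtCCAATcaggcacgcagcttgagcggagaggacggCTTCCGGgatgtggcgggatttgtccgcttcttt
ZNF493, chr19:21579825-21579934, + strand: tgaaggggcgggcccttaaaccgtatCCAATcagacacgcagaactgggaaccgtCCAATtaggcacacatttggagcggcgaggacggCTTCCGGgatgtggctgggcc
ZNF429, chr19:21688294-21688403, + strand: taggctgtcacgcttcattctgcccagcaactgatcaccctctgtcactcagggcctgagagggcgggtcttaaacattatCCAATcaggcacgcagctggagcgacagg
ZNF85, chr19:21105947-21106056, + strand: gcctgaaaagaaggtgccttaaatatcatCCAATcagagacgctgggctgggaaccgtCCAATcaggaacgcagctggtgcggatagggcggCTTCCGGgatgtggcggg

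A pair of neighbours from the distal cluster, from ZNF628 to ZNF446, is shown in the same way, because their promoters lie 30640 bp apart and differed strongly in SCC1. ZNF417 was open in SCC1 and ZNF256 was not.
ZNF417, chr19:58427961-58428070, - strand: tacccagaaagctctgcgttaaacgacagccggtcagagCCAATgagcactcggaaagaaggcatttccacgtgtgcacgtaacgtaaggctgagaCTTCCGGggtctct
ZNF256, chr19:58459075-58459184, - strand: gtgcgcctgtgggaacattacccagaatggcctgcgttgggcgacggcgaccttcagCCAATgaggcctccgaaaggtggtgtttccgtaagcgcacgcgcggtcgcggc

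The signal is the read count of a region scaled between libraries by the authors, with 0 reads set to 1, so that a value at a library's minimum stands for 0 or 1 read. Reads in all regions numbered 2194851 to 15017130 per library, and the median ZNF region held 22 to 340.5 reads. Replicates correlated at 0.901 to 0.984 over the ZNF regions, a description over regions of shared libraries, and every replicate pair differed by more than counting error. Promoters of the squamous and epithelial markers KRT5, KRT14, TP63, CDH1 and SFN had regions in the table, whereas PTPRC, CD3E, PECAM1, CDH5, MYOD1 and GFAP, which mark leukocytes, endothelium, muscle and glia, had none. The KRT14 promoter was low in SCC6, at a mean signal of 1.66 with PBS against 38.8 in SCC1 and 35.8 in SCC25. In cell populations, a larger share of cells with an open promoter and a more open promoter in each cell cannot be told apart.

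The ZNF promoters were most accessible in SCC6. The median over the 246 regions of log2(signal + 1) was 6.93 ± 0.03 in SCC6 with PBS (mean of the library medians ± SD, n = 3), 5.62 ± 0.08 in SCC25 with PBS (n = 3) and 5.26 ± 0.15 in SCC1 with PBS (n = 2). With cetuximab the values were 6.79 ± 0.04, 5.70 ± 0.02 and 5.77 ± 0.29, with n = 3 each. Every SCC6 library had a higher ZNF median than every library of the other lines. Relative to the promoters of the other chromosomes in the same library, the ZNF median differed by 0.60 to 0.71 in the SCC6 libraries, by between -0.50 and -0.38 in SCC25 and by between -1.06 and -0.56 in SCC1, on the log2 scale. The ZNF regions held 0.247% of all signal in SCC1 with PBS, replicate 1, and 0.721% in SCC6 with PBS, replicate 1.

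**Figure D1:**
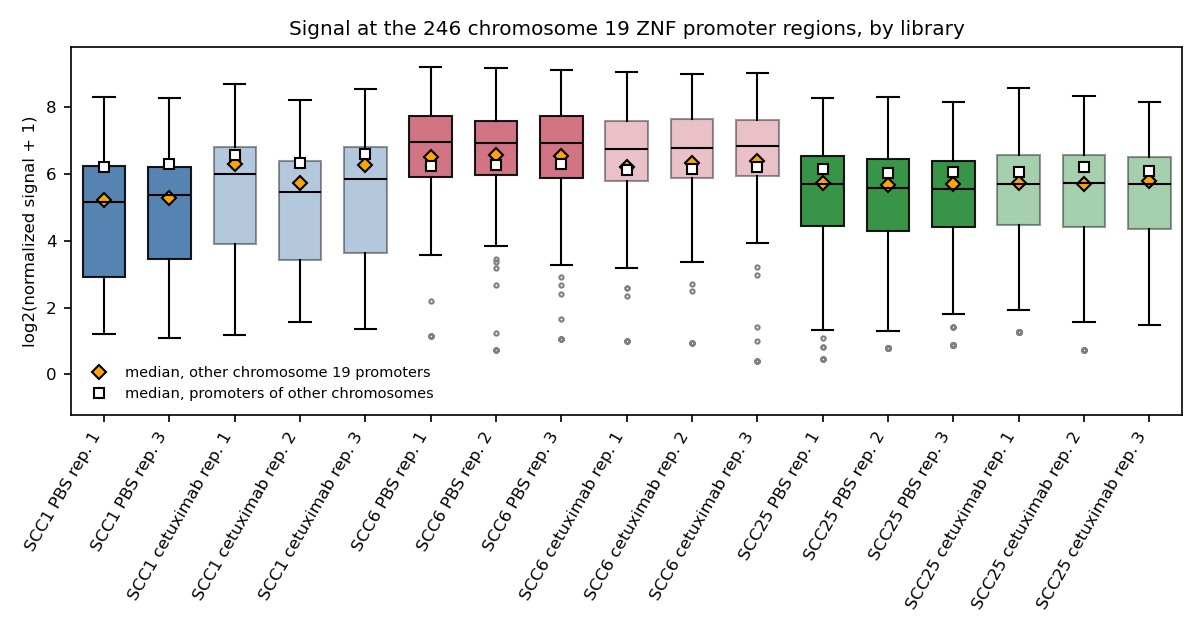
Signal at the 246 ZNF promoter regions in the 17 libraries, as log2(normalised signal + 1). Boxes span the quartiles with the median as a line, whiskers reach 1.5 times the box and points lie beyond, and diamonds and squares give the medians of the other chromosome 19 promoters and of the promoters of other chromosomes. The median lines of the SCC6 boxes, at 6.76 to 6.96, lie above both comparison medians, which fall within the boxes. The median lines of SCC1 and SCC25 lie below the medians of the promoters of other chromosomes.

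Compared with SCC1 under PBS, 199 of the 229 ZNF regions with enough signal to be tested were higher in SCC6 and 2 were lower (limma, adjusted p under 0.05 over all 86315 regions tested). Among all regions tested, 30.7% were higher and 30.5% lower. The median difference over the tested ZNF regions was 1.58 on the log2 scale. In 222 of the 246 regions, tested or not, the libraries of the 2 lines did not overlap (90.2%), against 66.3% of all regions and 86.0% of the other promoters of the chromosome. The direction was shared by the rest of the chromosome, as 546 of 686 other promoters of chromosome 19 were higher and 12 lower, with a median of 1.23, and the median over the 1361 regions of the chromosome outside promoters was 1.03. It was weaker at zinc finger genes elsewhere, where 83 of 231 ZNF promoter regions of other chromosomes were higher and 33 lower, with a median of 0.21. The copy number of chromosome 19 in each line was not measured here, and more copies of the DNA and more access per copy cannot be told apart in these values.

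Against SCC6, SCC25 showed the opposite picture. With PBS, 203 of 229 ZNF regions were lower in SCC25 and 2 were higher, with a median of -1.11, where 32.1% of all regions were lower and 36.7% higher. The libraries of these lines did not overlap in 220 of 246 regions (89.4%), against 69.4% of all regions and 81.6% of the other promoters of the chromosome. The other promoters of the chromosome again moved the same way, with 523 of 686 lower and 16 higher and a median of -0.83.

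SCC25 and SCC1 lay closer together. With PBS, 84 of 229 regions were higher in SCC25 and 23 were lower, with a median of 0.32, against 28.2% higher and 23.1% lower among all regions. That median was 0.22 with the 11 regions at the minimum in 1 of these lines set to a floor of 3 reads, and the split was 72 higher and 50 lower after each library was centred on its median. Other chromosome 19 promoters gave 251 higher and 35 lower of 686, with a median of 0.34.

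The excess in SCC6 was most uneven at the top of the range, where single ZNF promoters were open in SCC6 and nearly silent in another line. In SCC6 with PBS, 53 of 246 ZNF regions (21.5%) were at least 3 log2 units above SCC1 and none was that far below. The same held for 22 of 708 other promoters of chromosome 19 (3.11%) and 278 of 14574 promoters of other chromosomes (1.91%). Against SCC25 the counts were 36 of 246 (14.6%), 1.27% and 1.73%. These shares are descriptions by size of difference and carry no test.

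Sorted by that limit, 30 ZNF regions were low in SCC1 and in SCC25, 23 were low in SCC1 but not in SCC25, 6 were low in SCC25 but not in SCC1, and 187 were low in neither. Low here means at least 3 log2 units below SCC6. The 187 therefore include regions with little signal in every line, among them ZNF66, ZNF85, ZNF430 and ZNF100, at the minimum in all libraries. The median signals of the 30 regions were 2.38 in SCC1, 66.8 in SCC6 and 2.65 in SCC25. Those of the 23 regions were 3.62, 132 and 55.8, and those of the 6 regions 30.6, 154 and 4.85. The 6 were ZNF878, ZNF738, ZNF429, ZNF793 and a pair of regions of ZNF331, named after their values were seen. Base composition hardly separated these classes, with median GC contents of 61.0%, 61.4%, 62.1% and 61.6% in the same order.

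ZNF14, ZNF160 and ZNF420 were fixed for description because their methylation is known in head and neck cancer. ZNF14 (chr19:19843587-19844207, over exon 1) had signals of 6.51 and 4.47 in SCC1, of 193, 162 and 131 in SCC6 and of 13.6, 5.05 and 2.54 in SCC25, all with PBS. It was therefore open in SCC6 alone, with no overlap, and every SCC6 library but no other library had a called peak there. SCC6 exceeded SCC1 by 4.65 on the log2 scale (SE 0.486, limma adjusted p = 6.67e-07) and SCC25 lay at -4.57 relative to SCC6 (SE 0.435, adjusted p = 1.68e-07). With cetuximab the SCC1 values were 7.62, 1.95 and 11, and the treated SCC6 values 160, 149 and 158.

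ZNF160 (chr19:53606563-53607023) was graded rather than closed. Its signals with PBS were 76.8 and 70.3 in SCC1, 190, 148 and 146 in SCC6, and 47.5, 30.3 and 45.8 in SCC25. The lines did not overlap in any pair, and all 3 differences passed the test, at 1.11 for SCC6 against SCC1 (SE 0.216, adjusted p = 0.000353), -1.96 for SCC25 against SCC6 (SE 0.193, adjusted p = 2.48e-07) and -0.85 for SCC25 against SCC1 (SE 0.216, adjusted p = 0.00405). ZNF420 (chr19:37568891-37569514) had the same order, at 78.1 and 71.5 in SCC1, 227, 207 and 246 in SCC6, and 59.9, 54.1 and 35.6 in SCC25. SCC6 was 1.58 above SCC1 (SE 0.204, adjusted p = 6.32e-06), and SCC25 differed from SCC6 by -2.19 (SE 0.182, adjusted p = 3.61e-08).

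ZNF285 and ZNF665 marked the extreme of the SCC6 pattern. At ZNF285 (chr19:44905547-44905900) the signals with PBS were 45.9, 52.9 and 53.3 in SCC6, against 1.3 and 1.12 in SCC1 and 1.51, 0.721 and 0.848 in SCC25. The SCC1 values were at the minimum of their libraries, 0 or 1 read, so that SCC6 was at least 14.0-fold higher when SCC1 is set to a floor of 3 reads per library. At ZNF665 (chr19:53696546-53696792) SCC6 had 44.7, 54.9 and 46.8, at least 13.5-fold above the same floor, and SCC25 had 1.51, 0.721 and 0.848. SCC25 differed from SCC6 with adjusted p = 5.15e-10 at ZNF285 and 5.54e-10 at ZNF665.

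The reverse order was rare. ZNF790 region 1 (chr19:37328985-37329492, over exon 1) had 41.6 and 31.3 in SCC1 and 32.4, 47.6 and 35.6 in SCC25, but 3.62, 5.35 and 5.44 in SCC6, with PBS. SCC6 lay at -2.69 relative to SCC1 (SE 0.38, adjusted p = 1.65e-05). ZNF556 (chr19:2866953-2867405) had 71.6 and 62.5 in SCC1, 37.3, 35.3 and 34.8 in SCC25 and 15.7, 16.1 and 6.53 in SCC6, with SCC6 at -2.40 relative to SCC1 (SE 0.36, adjusted p = 3.17e-05). These were the 2 ZNF regions that passed the test as lower in SCC6 than in SCC1, and also the 2 that passed as higher in SCC25 than in SCC6.

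Along the chromosome, the ZNF genes fell into 9 clusters, taken as runs of at least 5 genes with starts less than 1 Mb apart, and 11 scattered genes. Every cluster had a median above 0 for SCC6 against SCC1 with PBS, from 0.48 in cluster 1 (ZNF554 to ZNF77, 5 regions) to 2.43 in cluster 3 (ZNF653 to ZNF490, 33 regions). In cluster 1, 2 of 5 tested regions were higher in SCC6 and 1 was lower. In cluster 3, 29 of 30 tested regions were higher in SCC6 and none lower, and the other regions between these genes had a median of 2.40, so that the ZNF promoters there did not stand apart from their surroundings. In cluster 2 (ZNF557 to ZNF846) 14 of 15 tested regions were higher, with medians of 1.90 for the ZNF regions and 1.57 for the other promoters between them.

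Cluster 8 (ZNF175 to ZNF331) differed from that picture. Its 40 ZNF regions had a median of 1.55, while the 5 other promoters between them had 0.19 and the 47 other regions 0.32. Of its 36 tested ZNF regions, 25 were higher in SCC6 and none lower, and 13 of its 40 regions were at least 3 log2 units higher. Cluster 9 (ZNF628 to ZNF446), the largest with 58 regions, had a median of 0.92 against 0.86 for the other promoters between them, and 52 of 58 regions were higher. Cluster 6 (ZNF146 to ZNF573) had 23 higher and 1 lower of 24 tested, with medians of 1.71 for ZNF regions, 1.67 for 3 other promoters and 3.79 for 17 other regions. In clusters 5 and 7 the ZNF medians were 2.12 and 1.32, and 5 of 5 and 20 of 26 tested regions were higher. These medians over regions of the same libraries are descriptions, and the difference between clusters was not tested.

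**Figure D2:**
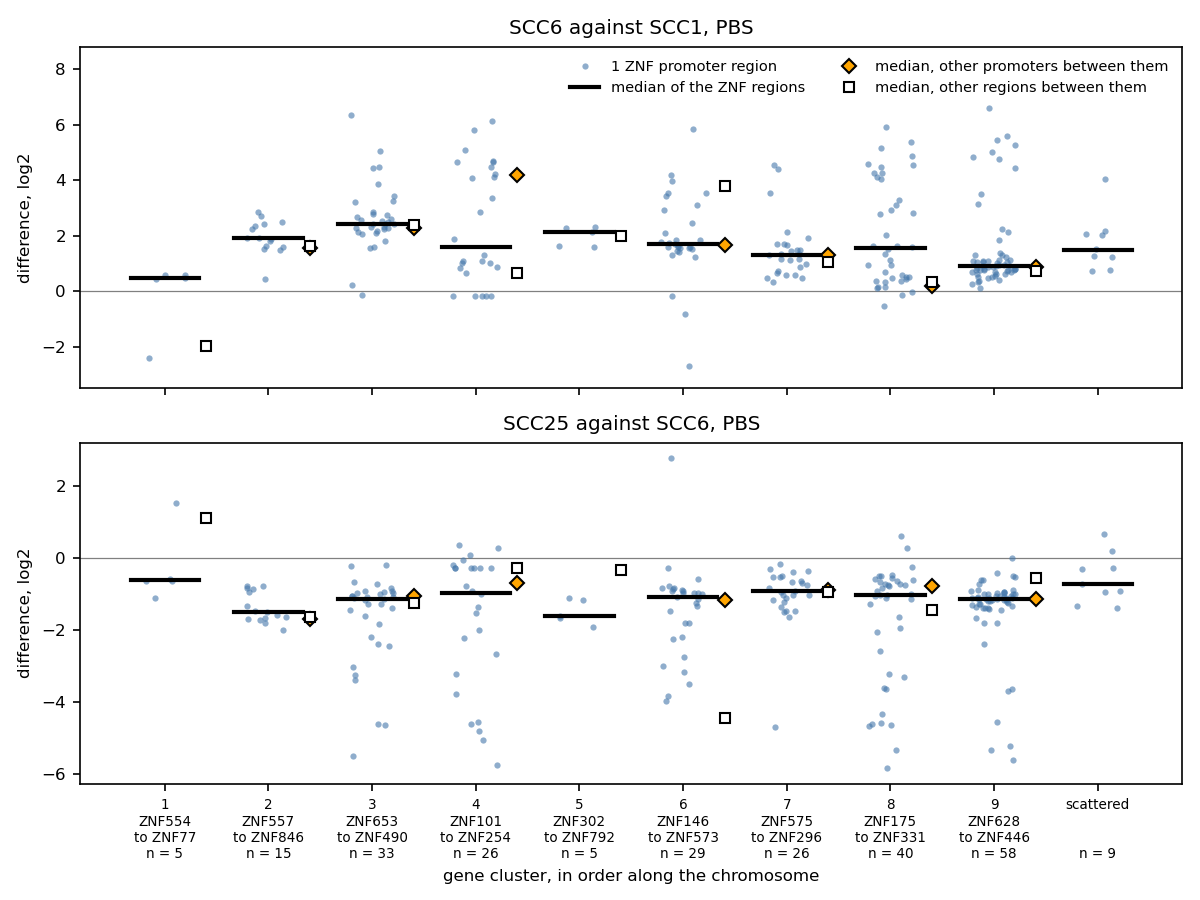
Differences between lines under PBS at each ZNF promoter region (points), by gene cluster in order along the chromosome, as differences of mean log2(normalised signal + 1). Bars are cluster medians, and diamonds and squares are the medians of other promoters and other regions between the ZNF genes. In the upper panel all cluster medians lie above 0, from 0.48 to 2.43, and in the lower panel, SCC25 against SCC6, all lie below 0, from -1.62 to -0.63.

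Cluster 4, the pericentromeric cluster from ZNF101 to ZNF254, was the least covered by the table. Of its 37 genes 25 had a region (67.6%), and the 12 without one were ZNF486, ZNF626, ZNF43, ZNF208, ZNF257, ZNF676, ZNF729, ZNF98, ZNF492, ZNF99, ZNF723 and ZNF728. All 21 tested regions of its 26 were higher in SCC6 than in SCC1 with PBS. The median difference was 1.59 over all 26 regions and 3.12 without the 4 regions at the minimum in every library, against 0.67 for the 67 other regions between the genes. The 2 other promoters between the genes had a higher median, 4.2, so the ZNF promoters did not stand apart from them. In 11 of 26 regions the difference reached 3 log2 units. The CpG content was low, with a median observed-to-expected ratio of 0.50 against 0.756 over all ZNF regions.

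**Figure D3:**
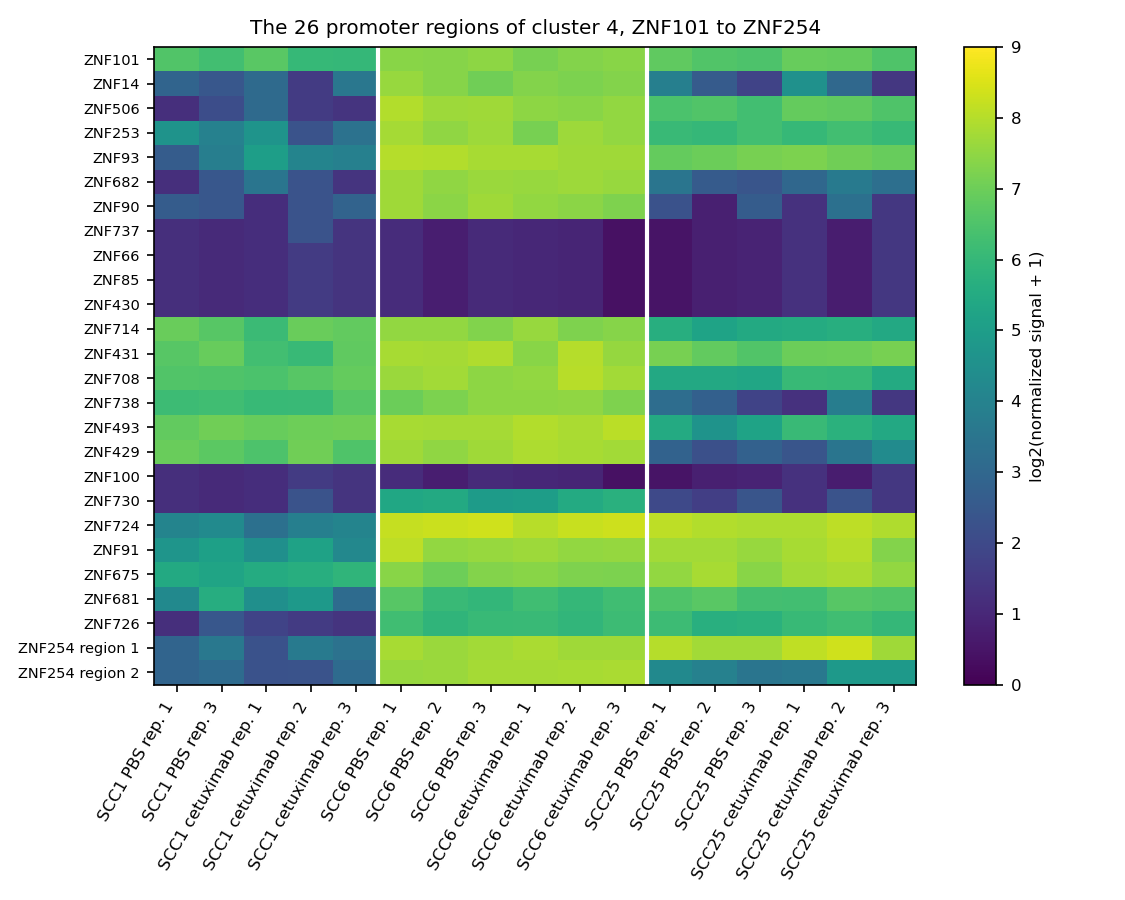
Signal at the 26 promoter regions of cluster 4 (rows, in order along the chromosome) in the 17 libraries (columns), as log2(normalised signal + 1), with white lines between the cell lines. Most rows are bright in SCC6, the rows from ZNF714 to ZNF429 are also bright in SCC1, the ZNF738 and ZNF429 rows are dark in SCC25, and 5 rows, ZNF737 among them, are dark in every line.

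A group of cluster 4 promoters was closed in SCC1 and open in the other lines. ZNF506 (chr19:19932246-19932797) had 1.3 and 3.35 in SCC1, 246, 205 and 208 in SCC6, and 85.5, 93.0 and 76.3 in SCC25, with PBS. SCC6 exceeded SCC1 by 6.12 (SE 0.262, adjusted p = 3.16e-10) and SCC25 exceeded SCC1 by 4.76 (SE 0.262, adjusted p = 5.19e-09). ZNF724 (chr19:23432780-23433443) had 15.6 and 19 in SCC1, 292, 306 and 322 in SCC6, and 277, 248 and 236 in SCC25. SCC6 was higher than SCC1 by 4.08 (SE 0.142, adjusted p = 3.43e-11) and SCC25 by 3.80 (SE 0.142, adjusted p = 2.92e-10), whereas SCC6 and SCC25 differed by -0.28 (SE 0.127, adjusted p = 0.0644), which missed the threshold. ZNF254 region 1, which spans a start of the gene but no exon of its main annotated transcript (chr19:24216067-24217056), had 6.51 and 11.2 in SCC1, 225, 201 and 216 in SCC6, and 252, 216 and 215 in SCC25. SCC25 and SCC6 overlapped there, at a difference of 0.09 (SE 0.174, adjusted p = 0.669).

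A block in the middle of the cluster behaved differently. ZNF714, ZNF431, ZNF708, ZNF738, ZNF493 and ZNF429, which follow each other along the chromosome, were all open in SCC1 with PBS, at signals from 71.6 in ZNF738, replicate 1, to 130 in ZNF493, replicate 3. Within it, SCC25 was low at ZNF738 (chr19:21541558-21542118), with 8.29, 5.77 and 2.54, and at ZNF429 (chr19:21688188-21688943), with 6.03, 3.61 and 5.94. Between them lies ZNF493 (chr19:21579660-21580323), where SCC25 kept 44.8, 23.8 and 36.5. SCC25 differed from SCC1 by -3.61 at ZNF738 (SE 0.348, adjusted p = 8.4e-07), -4.23 at ZNF429 (SE 0.251, adjusted p = 1.02e-08) and -1.81 at ZNF493 (SE 0.216, adjusted p = 6.6e-06). SCC6 had 124, 150 and 175 at ZNF738, 211, 181 and 211 at ZNF429 and 227, 221 and 220 at ZNF493. Side by side, ZNF738 and ZNF493 were both open in SCC6 and SCC1 and separated in SCC25, where no library overlapped, and the 97 bases around their promoter motifs were 79.4% identical.

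The signal of 4 cluster 4 promoters cannot be read as a measure of closed chromatin. ZNF66, ZNF85, ZNF430 and ZNF100 were at the minimum of 0 or 1 read in all 17 libraries, although a peak was called at the ZNF430 region in 16 libraries, at ZNF100 in 13, at ZNF85 in 7 and at ZNF66 in 6. The median fold enrichment of these peaks was 3.98 at ZNF430, 4.24 at ZNF100, 4.71 at ZNF85 and 4.92 at ZNF66. Such regions made up 1.63% of the ZNF regions, 3.65% of all promoter regions and 2.82% of the whole table. At ZNF85 and ZNF66 all 6 SCC6 libraries had a peak, with 1 SCC1 library besides at ZNF85 and none at ZNF66, and no SCC25 library at either. Reads from near-identical copies could be split or dropped in the authors' counting, which was not tested, so levels within this cluster are uncertain.

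For 136 pairs of neighbouring ZNF regions within 50 kb, the difference between SCC6 and SCC1 with PBS differed by a median of 0.44 log2 units from one neighbour to the next, and over the 25970 other pairs of ZNF regions by a median of 1.27. The pairs share regions and libraries, and the medians are descriptions. Some of the neighbours are regions of the same gene, as at ZNF846, so 0.44 is not a median between different genes alone. Between neighbours of different genes, the 3 widest gaps were 4.1 for ZNF417 and ZNF256 (30640 bp apart), 4.07 for ZNF549 and ZNF550 region 1 (31304 bp) and 4.05 for ZNF761 and ZNF813 (35392 bp).

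At ZNF417 (chr19:58427689-58428249) the PBS signals were 78.1 and 104 in SCC1 and 168, 170 and 177 in SCC6, and SCC6 was higher by 0.92 (SE 0.19, adjusted p = 0.000595). At ZNF256 (chr19:58458889-58459408) SCC1 had 6.51 and 4.47 and SCC6 had 232, 196 and 195, higher by 5.02 (SE 0.218, adjusted p = 3.66e-10). SCC6 was high at both neighbours, and SCC1 had a called peak at ZNF417 alone. SCC25 had 76.1, 72.8 and 51.7 at ZNF417 and 106, 78.6 and 84.8 at ZNF256. There, SCC25 was 3.81 above SCC1 (SE 0.218, adjusted p = 7.43e-09).

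ZNF761 (chr19:53934909-53935376) had 82.0 and 87.1 in SCC1 and 132, 118 and 116 in SCC6, a difference of 0.52 (SE 0.168, adjusted p = 0.0139) that missed the threshold without SCC1 PBS replicate 1, at 0.0653. Its neighbour ZNF813 (chr19:53970768-53971281) had 1.3 and 4.47 in SCC1, 100, 82.3 and 70.7 in SCC6 and 16.2, 10.8 and 12.7 in SCC25, with SCC6 higher than SCC1 by 4.58 (SE 0.42, adjusted p = 1.54e-07). At ZNF549 (chr19:58038525-58039068) SCC1 had 5.2 and 10.0 and SCC6 had 262, 226 and 222. ZNF550 region 1 (chr19:58070372-58070554) is an intronic region of 183 bp with low values in all lines, at 6.51 and 14.5 in SCC1 and 15.7, 30.1 and 10.9 in SCC6, which overlap (adjusted p = 0.206).

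The promoters with the highest signal were open in all lines. At ZNF444 (chr19:56651981-56652682) the PBS signals were 316 and 310 in SCC1, 593, 542 and 551 in SCC6, and 306, 279 and 286 in SCC25. SCC6 was higher than SCC1 by 0.84 (SE 0.0882, adjusted p = 6.96e-07). The next, ZNF558, whose region also covers a start of MBD3L1 (chr19:8942865-8943825), had 121 and 162 in SCC1, 487, 571 and 512 in SCC6, and 299, 312 and 254 in SCC25, and ZNF524, shared with FIZ1 (chr19:56110247-56111646), had 232 and 189, 343, 365 and 347, and 165, 195 and 147. Per kb of region, the mean over all libraries was 553 at ZNF444, 362 at ZNF558 and 189 at ZNF524. In all, 23 ZNF regions also lay within 1 kb of a start of another protein-coding gene, and 180 of the 201 calls between SCC6 and SCC1 concerned regions with no such neighbour.

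The peaks called by the authors in each library gave the same order of lines. A peak overlapped 210 to 243 of the 246 ZNF regions per SCC6 library (85.4% to 98.8%), 80 to 185 per SCC25 library (32.5% to 75.2%) and 43 to 122 per SCC1 library (17.5% to 49.6%). The other promoter regions of the table had peaks in 66.4% to 90.7% per SCC6 library, 35.9% to 85.4% in SCC25 and 31.4% to 57.9% in SCC1, so that the ZNF promoters were above the other promoters in each SCC6 library and below them in each library of the other lines. Low shares in those lines were common to the chromosome, as its other promoters had peaks in 24.4% to 76.1% in SCC25 and 15.1% to 49.4% in SCC1. The ZNF share was above that of the other chromosome 19 promoters in every library but SCC1 cetuximab replicate 3 (42.7% against 43.5%) and SCC25 PBS replicate 1 (75.2% against 76.1%). A peak counted with 1 base of overlap, and the ZNF regions were wider than those promoters, at medians of 559 and 444 bp. Per kb of region with PBS, the median ZNF signal was below theirs in SCC1 (71.5 against 91.6) and SCC25 (92.4 against 116). In SCC6 it was above theirs (227 against 209). The part of width in the shares was not tested. Libraries with more reads had more peaks, from 13035 to 101272, and the part of depth in these counts was not tested.

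By peaks alone, 51 ZNF promoters (20.7%) had a peak in SCC6 libraries only, 1 in SCC25 libraries only and none in SCC1 libraries only, against 8.51%, 4.8% and 0.563% of the 15282 other promoters. A peak in every SCC6 library and in no SCC1 library was found at 63 regions (25.6%, against 4.41% of other promoters), and in every SCC6 and no SCC25 library at 28 (11.4%, against 1.8%). The reverse, a peak in every SCC1 library and no SCC6 library, was found at 0 of 246 and at 0.196% of other promoters. Peaks were present in every library at 19 regions (7.72%, against 20.5%). No ZNF region lacked a peak in every library, so ZNF promoters without any peak are not counted here. The 51 could have entered the table through SCC6 peaks alone.

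The ZNF promoters share sequence features that the choice of regions did not use. Windows of 300 bases, from 250 before to 50 after the start, were searched on both strands for exact motifs, and overlapping matches of different motifs were all counted. The ETS core CCGGAAG was present in 97 of 218 chromosome 19 ZNF promoters with a region (44.5%), against 31.6% of 266 ZNF promoters of other chromosomes, 15.1% of 1225 promoters of other chromosome 19 genes and 14.1% of all 19819. Its median position was -13 relative to the start, and 91.8% of these promoters had it between 100 bases before and 50 after. CCAAT was present in 51.4% against 36% of all promoters, the GC box GGGCGG in 68.3% against 61.5%, and TATAAA in 2.29% against 9.65%. The CCAAT share differed by cluster, over genes with or without a region, from 16.7% in cluster 7 to 100% in cluster 1. It was below the 36% of all promoters in clusters 2, 6, 7 and 8.

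Cluster 4 promoters shared a recurrent layout. Of its 35 promoters 34 held CCAAT (97.1%) and 24 held the ETS core (68.6%). A pair of CCAAT motifs exactly 29 bases apart, as printed for ZNF724, ZNF506, ZNF738, ZNF493 and ZNF85, was found in 19 of 35 (54.3%), in no promoter of any other chromosome 19 ZNF cluster and in 87 of 19819 promoters in all (0.439%). With an ETS core within 50 bases behind the pair there were 13 in cluster 4, 10 elsewhere and 23 in all. In cluster 3 CCAAT was as common, in 23 of 25 promoters, but the ETS core was present in 2. The 24 cluster 4 promoters with the ETS core, set side by side at that motif without gaps over 97 bases, were 79.4% identical at the median of 276 pairs, with a range of 26.8% to 94.8%. ZNF738 and ZNF724, open in different lines, were 82.5% identical. The values of ZNF506 were low, at 34.0% against ZNF724, as its spacing from CCAAT to the ETS core is longer and no gaps were allowed.

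**Figure D4:**
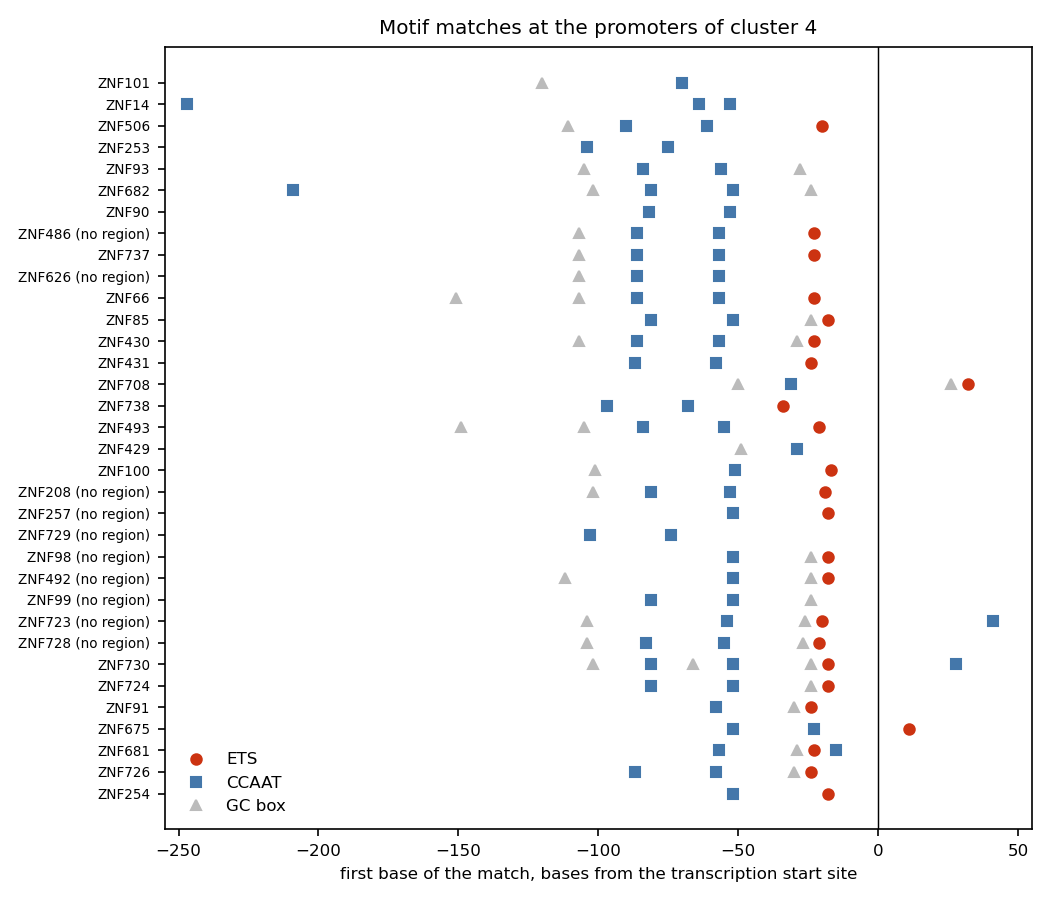
Exact matches to the ETS core CCGGAAG (circles), CCAAT (squares) and the GC box GGGCGG (triangles) in the promoters of cluster 4, 1 row per gene with a match in order along the chromosome, plotted by the position of the first base of the match relative to the transcription start site. Paired squares 29 bases apart occur at 19 of the 35 promoters searched, and most rows with a circle have it just before the start.

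These matches describe letters only. ZNF promoters whose gene had the ETS core had a median difference between SCC6 and SCC1 with PBS of 1.12 (106 regions) and those without it 1.71 (138 regions). Translation of the annotated coding sequences gave a median of 12 C2H2 fingers per protein over 246 genes and a maximum of 36, in ZNF208. Regions of genes with the KRAB letters numbered 173 and had a median difference of 1.60, against 1.52 for the 73 other regions. Those 73 include the regions of ZNF442 and ZNF714, for which no coding sequence was translated. The KRAB letters are a short exact pattern of the domain's start, allowing V or L in the leading place, and diverged domains are missed by it.

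The comparisons of lines were made again in the cetuximab libraries, which share no library with those under PBS. SCC6 was higher than SCC1 at 159 of 232 tested ZNF regions and lower at 7, with a median of 1.08, where 34.1% of all regions were higher and 26.4% lower. After centring of each library the counts were 119 and 22. Without centring, cluster 1 was reversed from PBS, with a median of -0.93 for SCC6 against SCC1 and 4 of 5 tested regions lower, none higher. The other clusters had medians from 0.51 to 1.81. SCC25 was lower than SCC6 at 175 of 232 and higher at 3, with a median of -0.97 (33.2% lower and 28.9% higher among all). SCC25 was higher than SCC1 at 51 and lower at 65, with a median of -0.04 (27.3% higher and 22.4% lower among all), and this split turned on the scaling, at 30 and 94 after centring and 69 and 42 after removal of the trend with GC content. Of the 199 ZNF regions that were called between SCC6 and SCC1 with PBS and tested in both sets, 191 had the same sign with cetuximab and 153 were called in the same direction. For SCC25 against SCC6 these were 203 and 168 of 204, and for SCC25 against SCC1 97 and 65 of 106.

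Cetuximab against PBS gave smaller differences at the ZNF promoters than the lines did against each other, and no ZNF region changed by 3 log2 units in any line. In SCC1, 38 of 221 tested regions (17.2%) rose and none fell (limma, 3 libraries against 2), where 4.57% of all regions rose and 6.56% fell. Among all other promoters the shares were closer to those of the ZNF regions, as 13.5% rose and 1.63% fell. The median difference over the ZNF regions was 0.44. The rise was not a property of zinc finger promoters alone, as 287 of 689 other chromosome 19 promoters (41.7%) rose, with a median of 0.81, and 38 of 235 ZNF promoters of other chromosomes rose and 3 fell, with a median of 0.30. The count fell to 11 when replicate 1 of either group was left out, and to 16 and 18 when the PBS or the cetuximab library of replicate 3 was. It reached 59 when the library with the fewest reads, cetuximab replicate 2, was left out.

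ZNF473 and ZNF57 had the smallest adjusted p among the SCC1 regions that rose. ZNF473, whose protein acts in histone mRNA processing, shares its promoter region with VRK3 (chr19:50528500-50529349). Its SCC1 signals were 181 and 133 with PBS and 344, 236 and 324 with cetuximab, a rise of 0.93 (SE 0.187, adjusted p = 7.89e-05), and the call was lost without SCC1 PBS replicate 3, at 0.0802. ZNF57 (chr19:2900527-2901129) had 63.8 and 72.6 with PBS and 165, 127 and 183 with cetuximab, a rise of 1.19 (SE 0.242, adjusted p = 0.000108). Neither gene had overlapping groups. By cluster, 12 of the called regions lay in cluster 3 and 4 of 5 tested regions in cluster 1 rose, while none of cluster 4 did.

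In SCC6, 3 of 238 tested regions rose and 16 fell, with a median of -0.11, where 16.9% of all regions rose and 10.6% fell. Other chromosome 19 promoters gave 11 higher and 107 lower of 687, with a median of -0.20. The split depended on the scaling, from 2 higher and 66 lower after centring to 4 higher and 3 lower after removal of the GC trend, and the count was 6 or 7 when replicate 2 of the cetuximab or of the PBS group was left out, and 11 when the treated replicate 1 was. ZNF571 (chr19:38085152-38086115) fell from 244, 233 and 232 with PBS to 176, 177 and 190 with cetuximab, by -0.38 (SE 0.113, adjusted p = 0.00871). ZNF628 (chr19:55987706-55988381) fell from 156, 177 and 170 to 118, 129 and 121, by -0.44 (SE 0.136, adjusted p = 0.0119), with the call lost without SCC6 PBS replicate 2 and after removal of the GC trend.

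The 2 named rises in SCC6 were at small regions of low signal in cluster 3. ZNF441 region 1, a region of 199 bp outside the gene (chr19:11876955-11877153), had 18.1, 24.1 and 18.5 with PBS and 57.6, 34.4 and 32.4 with cetuximab, higher by 0.96 (SE 0.295, adjusted p = 0.0115). ZNF763 region 3, in an intron (chr19:12087163-12087376), had 15.7, 9.37 and 10.9 with PBS and 26.3, 22.3 and 29.8 with cetuximab, higher by 1.08 (SE 0.355, adjusted p = 0.0187). Neither pair of groups overlapped. Both calls were lost in some alternatives, with DESeq2 on the recovered reads among them, at adjusted p up to 0.127 for ZNF441 region 1 and 0.0764 for ZNF763 region 3.

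In SCC25, 0 of 223 tested ZNF regions changed with cetuximab (limma), and 25 had an unadjusted p under 0.05 (11.2%, against 13.2% of all regions). The edgeR test on recovered reads called 2 and DESeq2 called 0. Among all regions 0.0405% rose and 0.275% fell in this line.

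Over all lines together, 5 of 229 regions rose with cetuximab and none fell, where 5.14% of all regions rose and 7.04% fell. The count was 1 without SCC1 PBS replicate 1 or SCC1 cetuximab replicate 3, 2 without SCC25 PBS replicate 2 and 2 with edgeR, and only the call at ZNF441 region 1 held in every alternative that tested it. ZNF420 was one of the 5, at 0.39 (SE 0.121, adjusted p = 0.0372), a call lost in 8 of 25 alternatives at adjusted p up to 0.0702, with signals of 78.1 and 71.5 against 103, 85.6 and 121 in SCC1, of 59.9, 54.1 and 35.6 against 64.7, 82.1 and 81.5 in SCC25, and of 227, 207 and 246 against 247, 246 and 239 in SCC6, where the groups overlap. ZNF441 region 1 rose by 1.11 (SE 0.205, adjusted p = 0.00141), with values in SCC1 and SCC25 of 1.3 and 1.12 and of 1.51, 0.721 and 0.848 under PBS, of which all but the 1.51, at 4 reads, are the minimum of 0 or 1 read. With cetuximab, SCC6 lay 3.29 above SCC1 there, and SCC25 0.34 above SCC1. A single read stood for 1.27 to 1.95 in treated SCC1 libraries against 1.12 to 1.3 with PBS. In SCC25 it stood for 0.651 to 1.77 against 0.377 to 0.848. The part of this scaling in the rise was not tested. ZNF880 (chr19:52872990-52873555) rose by 1.01 (SE 0.308, adjusted p = 0.033), a call lost in 8 alternatives, from 1.3 and 5.58 to 8.89, 5.84 and 14.1 in SCC1 and from 3.01, 0.721 and 3.39 to 12.7, 5.21 and 7.08 in SCC25.

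**Figure D5:**
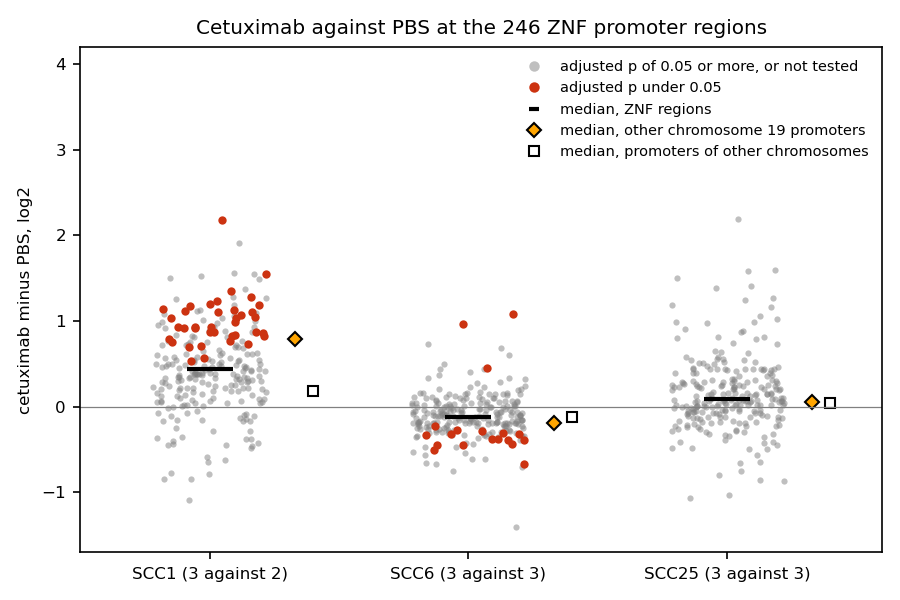
Change with cetuximab at each of the 246 ZNF promoter regions (points) in each line, as differences of mean log2(normalised signal + 1), with regions at adjusted p under 0.05 in red. Bars are medians over the ZNF regions, diamonds over other chromosome 19 promoters and squares over promoters of other chromosomes. All red points of SCC1 lie above 0, 16 of the 19 in SCC6 lie below, and SCC25 has none.

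The response differed between lines at 43 of 229 ZNF regions (18.8%) by the interaction of line and treatment, against 13.2% of all regions and 40.8% of the other chromosome 19 promoters. The interaction had its smallest adjusted p at ZNF473 (0.000225), where SCC1 rose by 0.93 while SCC6 changed by -0.33 (adjusted p = 0.0194) and SCC25 by -0.36 (adjusted p = 0.31). ZNF574 (chr19:42579912-42580493) had 84.6 and 106 with PBS and 192, 162 and 169 with cetuximab in SCC1, a rise of 0.87 (SE 0.225, adjusted p = 0.00353), and -0.06 in SCC6 and -0.19 in SCC25, with an interaction p of 0.00146 after adjustment by limma. ZNF563 (chr19:12444141-12444806) had 67.7 and 55.8 against 129, 83.7 and 133 in SCC1, a rise of 0.87 (SE 0.264, adjusted p = 0.016), with an adjusted interaction p of 0.00197. The interaction count was 26 with PBS replicate 1 of SCC1 left out and 69 with its cetuximab replicate 2 left out.

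The genes of the KRAB repressor pathway, taken from textbook knowledge of the proteins that KRAB domains recruit, had promoter regions for 23 of 24 members and 20 were tested. With PBS, 12 were higher in SCC6 than in SCC1 and none lower, none was higher and 12 were lower in SCC25 than in SCC6, and 3 were higher and 5 lower in SCC25 than in SCC1. Among all other promoters, 27.4% were higher in SCC6 than in SCC1 and 21.5% lower, 19.1% were higher and 41.5% lower in SCC25 than in SCC6, and 18.8% were higher and 31.5% lower in SCC25 than in SCC1, so that the last split was near its background. DNMT1, the maintenance DNA methyltransferase, had 1.90 (adjusted p = 1.62e-08) and TRIM28, the corepressor itself, 0.79 (adjusted p = 4.04e-05) for SCC6 against SCC1. Both genes lie on chromosome 19, whose promoters moved in that direction as a whole. With cetuximab, 8 rose and none fell in SCC1, where 13.5% of the other promoters rose, with EHMT1, a histone H3K9 methyltransferase, at 1.26 (adjusted p = 2.84e-06), and 2 fell in SCC6, DNMT1 by -0.33 (adjusted p = 0.0301) and EHMT1 by -0.57 (adjusted p = 0.00618). None passed in SCC25 or over all lines.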

How the data were processed

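ATAC-seq libraries of the HNSCC lines SCC1, SCC6 and SCC25, treated with cetuximab or PBS, were analysed from the deposited table of accessible regions and the deposited peak list of each library. Per the submitters' processing notes and the study's methods, the authors trimmed reads with Trim Galore 0.5.0, aligned them to hg19 (GRCh37) with Bowtie2 2.3.2, removed duplicates with Picard 2.18, filtered with SAMtools 1.9 and called broad peaks per library with MACS2. Its settings, the handling of the Tn5 cut position and the version of the counting tool are not given in the sources used here. The signal deposited by the authors is the read count of each merged region times 1 factor per library, with 0 reads set to 1. All values (100%) were whole multiples of the factor within 0.001, so that whole reads were recovered for the count tests. The deposited peak lists hold, per the file format, an integer score, a fold enrichment ratio, −log10 p-values and −log10 q-values. SCC1 with PBS, replicate 2, was not analysed here.

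Regions within 1 kb of a start in GENCODE 44, lifted to GRCh37, were selected with Python 3.11.15. Tests used limma 3.58.1 in R 4.3.3 on log2(signal + 1), which understates changes of low regions, after the lowest 25% of regions by mean signal in the libraries of each fit were removed, with Benjamini-Hochberg adjustment over all regions tested. Each line's cetuximab libraries were compared with its PBS libraries in a fit of their own, and lines were compared in fits of the 8 PBS or of the 9 cetuximab libraries, and the interaction and the change over all lines came from a fit of all 17 libraries. Of 246 ZNF regions 209 were tested in every comparison and 7 in none. The 2-sided tests used a mean-variance trend and robust empirical Bayes and were tested on simulated data. Alternatives were other scalings, removal of the GC trend, a pseudocount of 5, no filter, edgeR 4.0.16 and DESeq2 1.42.0 on recovered reads, a replicate block, 1 region per gene and leaving out each library.

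Regions were named by a rule: ZNF14, ZNF160 and ZNF420, the 3 higher and 3 lower regions of smallest adjusted p without overlap in each PBS comparison of lines, 2 and 2 in each cetuximab comparison, the 3 highest and 3 lowest by mean signal, the 3 of smallest interaction p, and the 3 most different pairs of neighbours of different genes within 50 kb. The members, gene lists and rule were chosen with earlier results of these data known. Sequences were read from GRCh37, and fingers and KRAB letters from translated GENCODE coding sequences.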

Additional observations from a re-analysis of the deposited data

Results flagged for a closer look

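The change with cetuximab differed between lines at 9 named ZNF promoters by the interaction of line and treatment in limma. The adjusted interaction p was 0.000225 at ZNF473, 0.00146 at ZNF574, 0.00197 at ZNF563, 0.00367 at ZNF256, 0.00419 at ZNF57, 0.0086 at ZNF813, 0.0116 at ZNF790 region 1, 0.0138 at ZNF628 and 0.021 at ZNF558. SCC1 had the highest difference of the lines at each of these 9, but the naming partly used the same values. ZNF473, ZNF574 and ZNF563 were named by their interaction p, and ZNF57 and again ZNF473 by the rise in SCC1. ZNF628 was named by its fall in SCC6, and ZNF790 region 1 by comparisons of lines in PBS libraries that also enter the interaction. ZNF558 was named by its mean signal over all libraries. ZNF256 and ZNF813 were named by a gap between neighbours that used the SCC1 PBS libraries. Over all tested ZNF regions, 43 of 229 (18.8%) passed the interaction test, against 13.2% of all regions. At ZNF256 the change with cetuximab was 1.19 in SCC1 (adjusted p = 0.314), -0.39 in SCC6 (adjusted p = 0.0174) and 0.03 in SCC25 (adjusted p = 0.965). At ZNF813 it was 2.18 in SCC1 (adjusted p = 0.0448), from 1.3 and 4.47 with PBS to 12.7, 15.6 and 17.2 with cetuximab, -0.26 in SCC6 and 0.16 in SCC25. At ZNF790 region 1, SCC1 rose by 0.91 (adjusted p = 0.0445), from 41.6 and 31.3 to 76.2, 58.4 and 73.6, SCC25 differed by 0.02, and the 3 treated SCC6 libraries were at 1.01, 0.928 and 1.65, the first and second at the minimum of 0 or 1 read. At ZNF628, SCC1 rose by 0.74 (adjusted p = 0.0339) and SCC6 fell by 0.44, and at ZNF558 SCC1 rose by 0.71 (adjusted p = 0.00835) where SCC6 differed by -0.03.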

How the results depend on the processing

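The 6 comparisons of lines kept their total counts within 1.5 times of the reported ones under every alternative, with leave-one-out ranges of 183 to 204 for SCC6 against SCC1, 97 to 110 for SCC25 against SCC1 and 192 to 209 for SCC25 against SCC6 with PBS, and of 144 to 168, 100 to 121 and 153 to 188 with cetuximab. The median over the ZNF regions for SCC6 against SCC1 with PBS ran from 1.46 to 1.83 over the scalings, tests and filters. Centring of each library moved the median of all regions most, by -0.48 for SCC6 against SCC1 with cetuximab. It also moved counts by direction, from 23 to 50 lower in SCC25 than in SCC1 with PBS, and with cetuximab from 51 to 30 higher in SCC25 than in SCC1 and from 7 to 22 lower in SCC6 than in SCC1, and the lowest and highest cluster medians from 0.48 to 0.14 and from 2.43 to 2.09.

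The cetuximab counts depended on the processing. In SCC1 the 38 calls became 62 after centring and 20 after removal of the GC trend, and 11 to 59 without 1 library (11 without PBS replicate 1 or cetuximab replicate 1, 16 without PBS replicate 3, 18 without cetuximab replicate 3, 59 without cetuximab replicate 2). In SCC6 the 19 calls became 68 after centring, 33 with edgeR, 7 after removal of the GC trend and 6 to 23 without 1 library. In SCC25 the 0 calls became 2 with edgeR and stayed at 0 without any 1 library. Over all lines the 5 calls became 10 with DESeq2, 2 with edgeR, 8 after removal of the GC trend and 1 to 7 without 1 library (1 without SCC1 PBS replicate 1 or SCC1 cetuximab replicate 3, 2 without SCC25 PBS replicate 2, and 3 without SCC1 cetuximab replicate 1, SCC25 cetuximab replicate 2 or 3, SCC6 PBS replicate 1 or SCC6 cetuximab replicate 2). The 43 interaction calls became 78 after centring, 68 with edgeR, 24 after removal of the GC trend and 26 to 69 without 1 library. The cause was not tested.

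Libraries with the same replicate number did not deviate together (correlations of -0.042 to 0.0265), so the numbers were not taken to pair them. With the replicate block the counts were 58 in SCC1, 22 in SCC6, 1 in SCC25, 2 over all lines and 42 for the interaction, and 198, 106 and 202 for the lines with PBS. Mean counts of ZNF regions with a peak fell under stricter rules, each applied on its own. The first asked for at least 50% of the region covered, the other for a −log10 q of at least 5 at any overlap. In that order, the counts fell from 98.5 to 23 and 19.5 in SCC1 with PBS and from 90 to 19 and 19.7 in SCC1 with cetuximab. In SCC6 they fell from 219 to 155 and 112 with PBS and from 231 to 181 and 135 with cetuximab. In SCC25 they fell from 165 to 83 and 67.7 with PBS and from 108 to 35.3 and 36.3 with cetuximab. Of 33 named results 32 were calls, of which 26 held under every alternative and 6 were lost under some, and 0 of the 33 reversed.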
